A study of Homo sapiens with 16 samples.

Results

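The genes described here are 38 heat shock chaperones and their regulators, named one by one from the cytosolic and mitochondrial protein-folding machinery, out of 23669 genes in a count table of poly(A) RNA from HCT116 cells, a human colorectal carcinoma line. All 38 passed the filter on low counts, as did 15520 genes in all, and the smallest count of any member in any library was 86. They fall into 8 role lists: HSP70 and HSP110 proteins, J proteins with other HSP70 partners, HSP90 and its cochaperones, small heat shock proteins, mitochondrial chaperones, subunits of the TRiC/CCT chaperonin, the collagen chaperone SERPINH1, and the heat shock factors HSF1 and HSF2. SERPINH1 works in the endoplasmic reticulum and the heat shock factors are transcription factors, so the set is wider than cytosolic and mitochondrial chaperones alone.

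The study compared 4 cell lines, each at 1% oxygen for 24 h (hypoxia) and at 21% oxygen (normoxia). They were HCT116 cells with HIF1A genetically deleted (HIF1A-/-, here HIF1A-null), cells stably expressing an shRNA against CDK8 (shCDK8), cells stably expressing an shRNA against TIP60 (shTIP60, the product of KAT5), and cells stably expressing a non-targeting shRNA (shNT). The HIF1A product is the subunit of hypoxia-inducible factor 1 that oxygen destabilises, CDK8 is the kinase of a Mediator module, and TIP60 is a lysine acetyltransferase. Each of the 8 groups had 2 libraries from independent biological replicates, called A and B below by the order of their library numbers. Each alteration is represented by 1 line, and no shRNA is named for the HIF1A-null cells, so the alteration, the clone and the presence of an shRNA vector cannot be told apart.

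Library totals ran from 26620086 to 39401494 counts. CDK8 had 5.84 and 5.45 counts per 1000000 (CPM, on TMM-scaled libraries) in hypoxic shCDK8 libraries, against 27.9 and 28.3 CPM in hypoxic shNT libraries. KAT5 had 22.0 and 21.0 CPM in hypoxic shTIP60 libraries, against 87.5 and 93.6 CPM in hypoxic shNT libraries. HIF1A had 40.1 and 57.6 CPM in hypoxic HIF1A-null libraries, against 61.2 and 70.5 CPM in hypoxic shNT libraries, and 13.0 and 14.1 CPM in normoxic HIF1A-null libraries, against 107 and 108 CPM in normoxic shNT libraries. The deleted exons are not given in the sources used here, so HIF1A counts from outside them do not check that label. CA9, a textbook HIF-1 target, had 0.186 and 0.325 CPM in hypoxic HIF1A-null libraries, against 56.0 and 44.2 CPM in hypoxic shNT libraries. CA9 does not stand for every hypoxia gene. A list of genes used to check hypoxia summed to 1587 and 1780 CPM in hypoxic HIF1A-null libraries, against 230 and 300 CPM in normoxic ones. In shNT libraries that list summed to 3697 and 4303 CPM in hypoxia, against 265 and 273 CPM in normoxia. Summed over 6 epithelial markers, levels were 7157 to 11334 CPM in hypoxic libraries, against 4078 to 7189 CPM in normoxic libraries, and higher in both hypoxic libraries of every line. Summed over 6 markers of other cell types they were 57.3 to 104 CPM in hypoxic libraries, against 33.3 to 63.5 CPM in normoxic libraries. PTPRC, PECAM1 and COL1A2 were at or near 0 throughout, COL1A1 carried most of that sum, and the part of either marker list in the results below was not tested. In bulk RNA, fewer cells that express a gene and less RNA per cell cannot be told apart.

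Heat shock chaperones bind unfolded or partly folded proteins and release them through cycles of ATP binding and hydrolysis. HSP70 proteins act first and are loaded by J proteins and emptied by nucleotide exchange factors such as the HSP110 proteins. Some clients then pass to HSP90, which is paced by cochaperones, and others to the barrel-shaped chaperonins, TRiC/CCT in the cytosol and HSPD1 with HSPE1 in mitochondria. Heat shock factor HSF1 switches many of these genes on by binding heat shock elements, arrays of the unit nGAAn in alternating orientation. Tumour cell lines commonly express much of this machinery without heat.

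Promoter sequence shows which members carry such an array. As HSF1 switches many of these genes on through such elements, their share among the members is not independent of the choice of members. RefSeq windows (GRCh38.p14) were found for 34 of the 38 genes, and HSPA14, HSF1, ST13 and FKBP4 had none. In the 250 bases before an annotated start, a 2-unit element (GAANNTTC or TTCNNGAA, the same on both strands) was present in 17 of 34 members (50%), against 14% of all 27305 genes with a window. A 3-unit element (GAA-NN-TTC-NN-GAA or TTC-NN-GAA-NN-TTC, which contains the shorter one) was present in 7 of 34 members (20.6%), against 0.557% of all genes. The core of the hypoxia response element (ACGTG or GCGTG, either strand) was present in 22 of 34 members (64.7%), against 47.4% of all genes. Some members have several windows, which gives them more chances of a match. Counted by window, the 2-unit element was in 34.7% of 49 member windows, against 11.6% of all 35116 windows. The 3-unit element was in 14.3%, against 0.441%, and the hypoxia core in 67.3%, against 43.2%. A match is a description of the letters and not of binding. The stretches below hold a 3-unit element of each of the 7 such members, and the 2-unit elements of the inducible HSP70 pair and of DNAJB1. They were matched to GRCh37 and are written 5′ to 3′ on the gene's strand, with the elements in capitals.
HSPA1A, chr6:31783199-31783236, plus strand: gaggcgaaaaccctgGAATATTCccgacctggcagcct
HSPA1B, chr6:31795395-31795432, plus strand: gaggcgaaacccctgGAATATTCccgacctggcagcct
HSPA8, chr11:122932879-122932907, minus strand: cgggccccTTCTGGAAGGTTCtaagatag
DNAJB1, chr19:14629234-14629301, minus strand: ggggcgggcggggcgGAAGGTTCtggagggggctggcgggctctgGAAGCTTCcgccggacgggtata
DNAJB6, chr7:157129552-157129594, plus strand: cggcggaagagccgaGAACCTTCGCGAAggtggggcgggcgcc
HSP90AA1, chr14:102553427-102553484, minus strand: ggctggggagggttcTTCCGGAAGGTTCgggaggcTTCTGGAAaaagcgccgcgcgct
HSP90AB1, chr6:44215500-44215595, plus strand: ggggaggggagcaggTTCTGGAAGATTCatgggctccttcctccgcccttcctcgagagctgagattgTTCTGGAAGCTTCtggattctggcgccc
CHORDC1, chr11:89956252-89956280, minus strand: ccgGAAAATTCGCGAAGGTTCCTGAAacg
HSPD1, chr2:198364786-198364814, minus strand: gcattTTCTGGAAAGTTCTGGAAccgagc
SERPINH1, chr11:75273214-75273242, plus strand: ttccaactTTCCAGAAGTTTCtcgggacg
The stretches of HSPA1A, HSPA1B and CHORDC1 lie upstream of the annotated gene (GENCODE v44lift37), those of DNAJB1, DNAJB6, HSP90AA1 and HSP90AB1 lie within the gene but in no exon, and those of HSPA8, HSPD1 and SERPINH1 lie in an exon of at least 1 transcript. Of the 10 genes printed, 6 fell in hypoxic shNT cells, and DNAJB1, DNAJB6, HSP90AB1 and SERPINH1 did not pass the test there. By count, 10 of 17 members with a 2-unit element and 11 of 17 without one fell in hypoxic shNT cells.

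Many of the chaperones were lower in hypoxia in the 3 shRNA lines, led by HSP70 and HSP110 genes, whereas in HIF1A-null cells 7 rose and 2 fell, and of the 7 HSP70 and HSP110 genes HSPH1 was the one called. A gene was called at an adjusted p under 0.05 from edgeR's quasi-likelihood test over all 15520 genes. In hypoxic shCDK8 cells 16 of the 38 members fell (42.1%), against 11% of all genes tested. In hypoxic shTIP60 cells 22 members fell (57.9%), against 19.8% of all genes. In hypoxic shNT cells 23 members fell (60.5%), against 20% of all genes. HIF1A-null cells gave another picture, with 7 members higher in hypoxia (18.4%), against 18.9% of all genes, and 2 lower (5.26%), against 19.1%. The share of higher calls in HIF1A-null cells was thus near the background.

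No member was called higher in hypoxia in shCDK8, shTIP60 or shNT cells, where 13.8%, 19.4% and 20.7% of all genes were. At an unadjusted p under 0.05 the edgeR counts were 1, 0 and 0, and DESeq2 also called 0 in each. The median log2 fold change over the 38 members was 0.21 in HIF1A-null, -0.33 in shCDK8, -0.42 in shTIP60 and -0.50 in shNT cells, beside medians between -0.02 and 0.00 over all genes. Both hypoxic libraries were below both normoxic libraries for 4 members in HIF1A-null (31.7% of all genes), 25 in shCDK8 (30.6%), 30 in shTIP60 (40.2%) and 28 in shNT cells (34.9%). Summed over the members, the level was 20119 and 23711 CPM in hypoxic HIF1A-null libraries, against 18845 and 17310.1 CPM in normoxic ones. In shNT libraries the sum was 11686 and 12112 CPM in hypoxia, against 17863 and 16564 CPM in normoxia. The hypoxic sums thus lay above the normoxic ones in HIF1A-null libraries and below them in shNT libraries on the TMM scale. As a share of the unscaled library total the members took 1.73% and 2.05% in hypoxic HIF1A-null libraries, against 1.90% and 1.87% in normoxic ones, so those groups then overlapped. In shNT libraries the share was 1.10% and 1.15% in hypoxia, against 1.91% and 1.82% in normoxia, again without overlap.

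**Figure D1:**
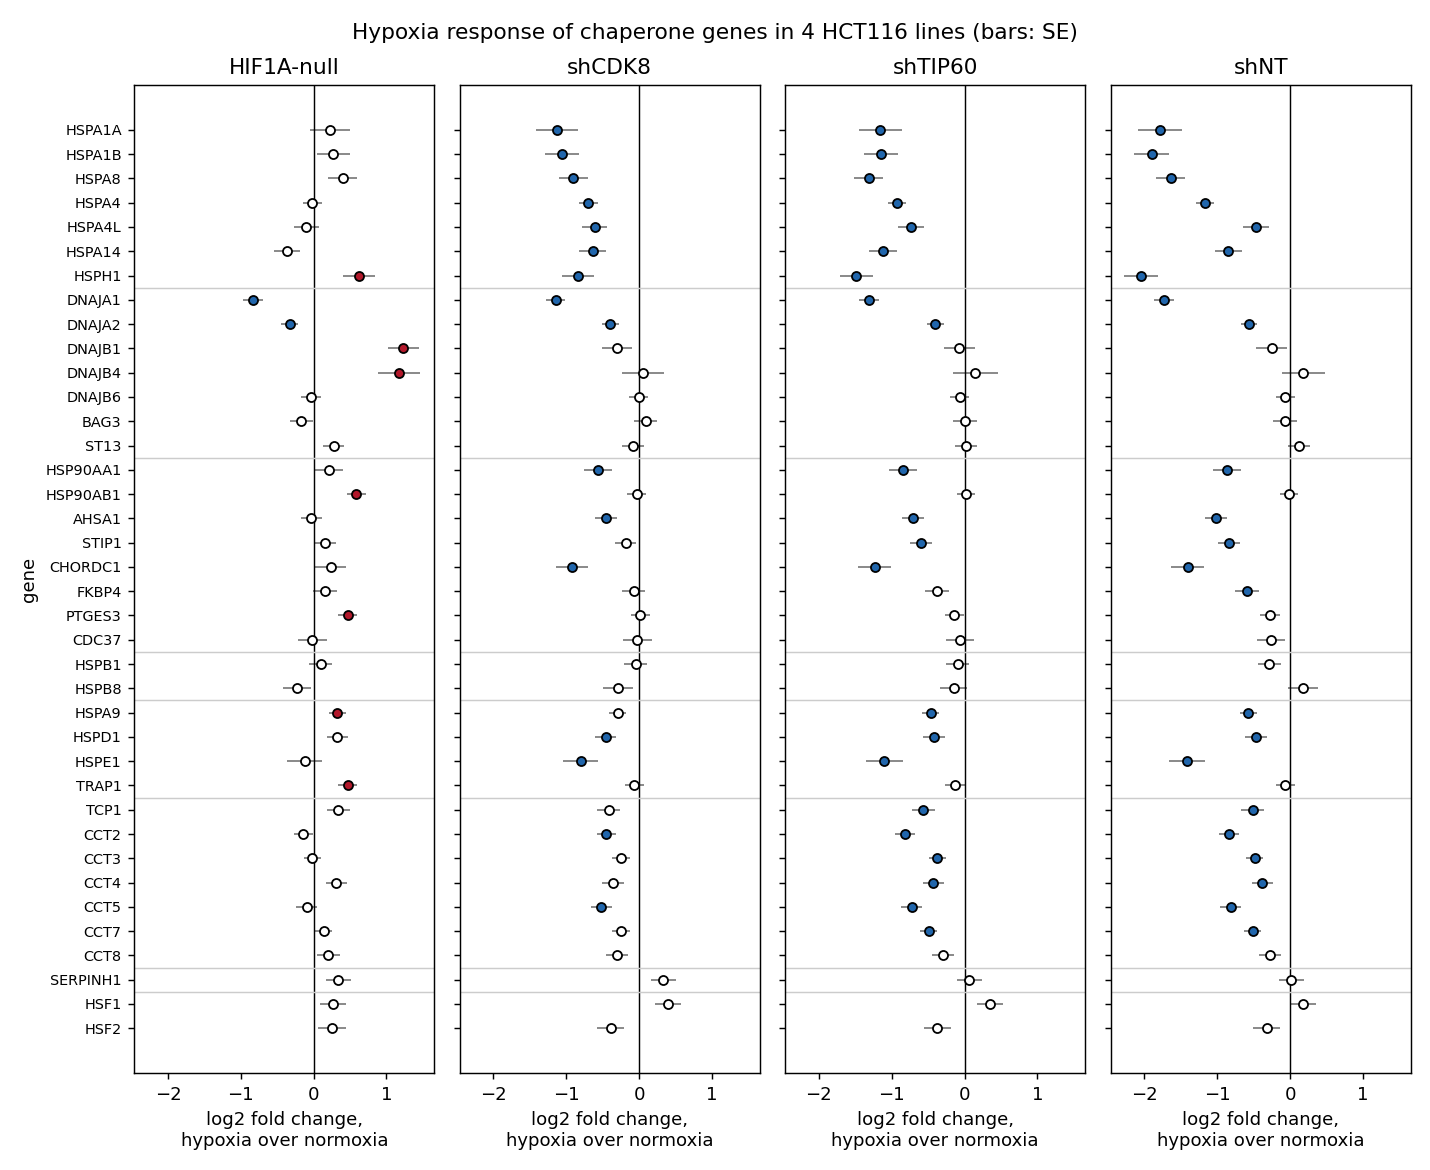
Log2 fold change of hypoxia over normoxia (horizontal axis, bars are standard errors) of each of the 38 members (vertical axis, in blocks by role), with 1 panel per line. Red points are higher calls, blue points lower calls and open points did not pass the test. The HSP70 and HSP110 block at the top is blue in the 3 shRNA panels, with HSPH1 at -2.04 in shNT cells, and HSPH1 at 0.62 is the filled point of that block in HIF1A-null cells.

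The values depend on how libraries were scaled. The scaling factors (TMM) were 0.862 to 0.965 in hypoxic libraries and 1.01 to 1.12 in normoxic libraries. With library totals alone the median over all genes moved to -0.28 in HIF1A-null, -0.16 in shCDK8, -0.23 in shTIP60 and -0.20 in shNT cells. The HIF1A-null split of 7 higher and 2 lower members then became 3 higher and 8 lower, where 9.57% of all genes were higher and 33.1% lower, with a member median of -0.07, which is above that shift. The members that stayed higher were DNAJB1, DNAJB4 and HSP90AB1.

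Of the 38 members, 16 fell in all 3 shRNA lines: HSPA1A, HSPA1B, HSPA8, HSPA4, HSPA4L, HSPA14, HSPH1, DNAJA1, DNAJA2, HSP90AA1, AHSA1, CHORDC1, HSPD1, HSPE1, CCT2 and CCT5. The J proteins DNAJA1 and DNAJA2 fell in HIF1A-null cells as well. The 22 members that fell in shTIP60 cells were all among the 23 that fell in shNT cells, and FKBP4 was the one called in shNT cells alone of this pair. A further 10 members passed the test in none of the 4 lines: DNAJB6, BAG3, ST13, CDC37, HSPB1, HSPB8, CCT8, SERPINH1, HSF1 and HSF2. How many of all genes shared calls between lines in these ways, or had no call, was not counted. At most 11% of all genes can have fallen in all 3 shRNA lines, as that share fell in shCDK8 cells. HSPH1 and HSPA9 were called in opposite directions, higher in hypoxic HIF1A-null cells and lower in hypoxic cells of other lines.

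**Figure D2:**
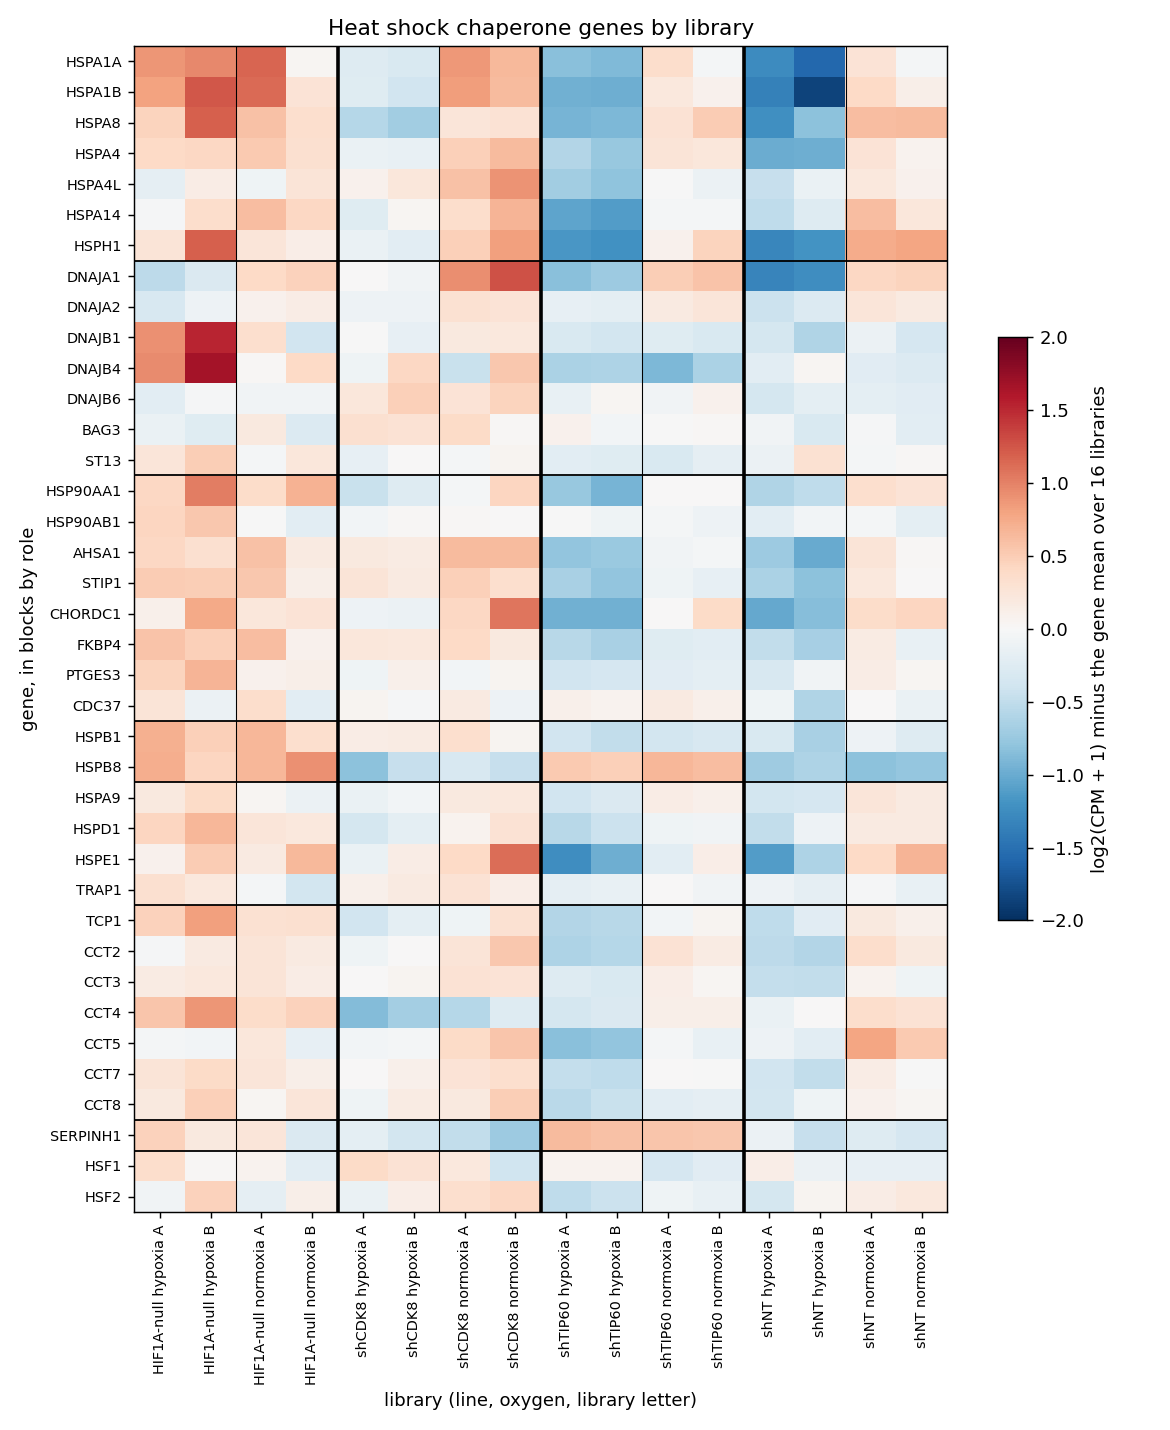
Level of each of the 38 members (rows, in blocks by role) in each of the 16 libraries (columns), as log2(CPM + 1) minus the gene's mean over the libraries, red above that mean and blue below it. The hypoxic shTIP60 and shNT columns are the bluest, and hypoxic HIF1A-null library B is red for HSPH1 at 264 CPM where library A had 137 CPM.

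The HSP70 and HSP110 family moved together in the shRNA lines. All 7 members fell in each of shCDK8, shTIP60 and shNT cells, with median log2 fold changes of -0.84, -1.15 and -1.64, while in HIF1A-null cells the median was 0.23 and HSPH1 was the one member called. HSPH1 (chr13:31709110-31736525, GRCh37), an HSP110 protein that exchanges nucleotide on HSP70, had 137 and 264 CPM in hypoxic HIF1A-null libraries, against 136 and 126 CPM in normoxic ones. In shCDK8 libraries it had 104 and 99.0 CPM in hypoxia, against 160.2 and 204 CPM in normoxia. In shTIP60 libraries it had 50.4 and 48.8 CPM in hypoxia, against 122 and 156 CPM in normoxia. The shRNA groups did not overlap, and neither did those of HIF1A-null cells, where 1 of the 2 hypoxic libraries lay just above the normoxic ones. The shNT libraries had 45.5 and 49.4 CPM in hypoxia, against 193 and 199 CPM in normoxia, a log2 fold change of -2.04 ± 0.23, adjusted p = 5.38e-06. The rise in HIF1A-null cells (0.62 ± 0.22, adjusted p = 0.0356) rested on library B: without it the value was 0.07, adjusted p = 0.816.

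HSPA8, the constitutive HSP70 of the cytosol, has a pair of 3-unit elements in its window, of which the one nearer the start is printed above. It had 1587 and 2667 CPM in hypoxic HIF1A-null libraries, against 1749 and 1474 CPM in normoxic ones, so these groups overlapped. In shCDK8 cells it had 785 and 724 CPM in hypoxia, against 1389.5 and 1433 CPM in normoxia, and in shTIP60 cells 614 and 627 CPM in hypoxia, against 1435 and 1656 CPM in normoxia. In shNT cells it had 496 and 662 CPM in hypoxia, against 1791 and 1819 CPM in normoxia. Every hypoxic library of the shRNA lines was below every normoxic one of its line, and the log2 fold change was -0.90 ± 0.20 in shCDK8, -1.32 ± 0.20 in shTIP60 and -1.64 ± 0.20, adjusted p = 1.4e-05, in shNT cells. In HIF1A-null cells the change of 0.40 ± 0.20 did not pass the test (adjusted p = 0.123).

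HSPA1A and HSPA1B, the stress-inducible HSP70 genes, are near-identical intronless copies on chromosome 6 (chr6:31783320-31785723 and chr6:31795515-31798031). Their upstream windows were identical at 235 of 249 bases (94.4%), and HSPA1A took 11.3% to 14.4% of the pair's counts in every library, so how reads were split between them is uncertain and their responses are not independent. HSPA1B had 122 and 167 CPM in hypoxic HIF1A-null libraries, against 155 and 84.7 CPM in normoxic ones. It had 59.1 and 53.5 CPM in hypoxic shCDK8 libraries, against 126 and 109 CPM in normoxic ones, and 35.5 and 34.9 CPM in hypoxic shTIP60 libraries, against 81.3 and 74.5 CPM in normoxic ones. Hypoxic shNT libraries had 26.7 and 18.6 CPM, against 92.5 and 76.3 CPM in normoxic ones. The shRNA lines separated by oxygen without overlap and HIF1A-null cells did not.

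HSPA1A, the smaller share of the pair, had 20.1 and 21.4 CPM in hypoxic HIF1A-null libraries, against 24.6 and 10.8 CPM in normoxic ones. It had 8.54 and 8.27 CPM in hypoxic shCDK8 libraries, against 19.9 and 16.8 CPM in normoxic ones, and 5.44 and 5.20 CPM in hypoxic shTIP60 libraries, against 13.7 and 10.1 CPM in normoxic ones. Levels in shNT cells were 3.80 and 2.84 CPM in hypoxia, against 12.8 and 10.1 CPM in normoxia. The shRNA groups did not overlap and the HIF1A-null groups did. The log2 fold changes in shNT cells were -1.78 ± 0.31, adjusted p = 0.000269, for HSPA1A and -1.90 ± 0.24, adjusted p = 1.89e-05, for HSPA1B. In HIF1A-null cells they were 0.23 ± 0.27 and 0.27 ± 0.23, neither past the test.

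HSPA4, a nucleotide exchange factor of the HSP110 group, had 302 and 305 CPM in hypoxic HIF1A-null libraries, against 329 and 285 CPM in normoxic ones, a log2 fold change of -0.02 ± 0.13, adjusted p = 0.927. It had 209 and 206 CPM in hypoxic shCDK8 libraries, against 318 and 354 CPM in normoxic ones, and 152 and 135 CPM in hypoxic shTIP60 libraries, against 275 and 269 CPM in normoxic ones. In shNT libraries it had 115 and 115 CPM in hypoxia, against 277 and 240.5 CPM in normoxia, a log2 fold change of -1.17 ± 0.13, adjusted p = 4.46e-06. The fall was thus present in the 3 shRNA lines, and its HIF1A-null groups overlapped. HSPA4L and HSPA14, the last an HSP70 that works beside the ribosome, fell less in shNT cells, by 0.47 and 0.85 on the log2 scale.

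**Figure D3:**
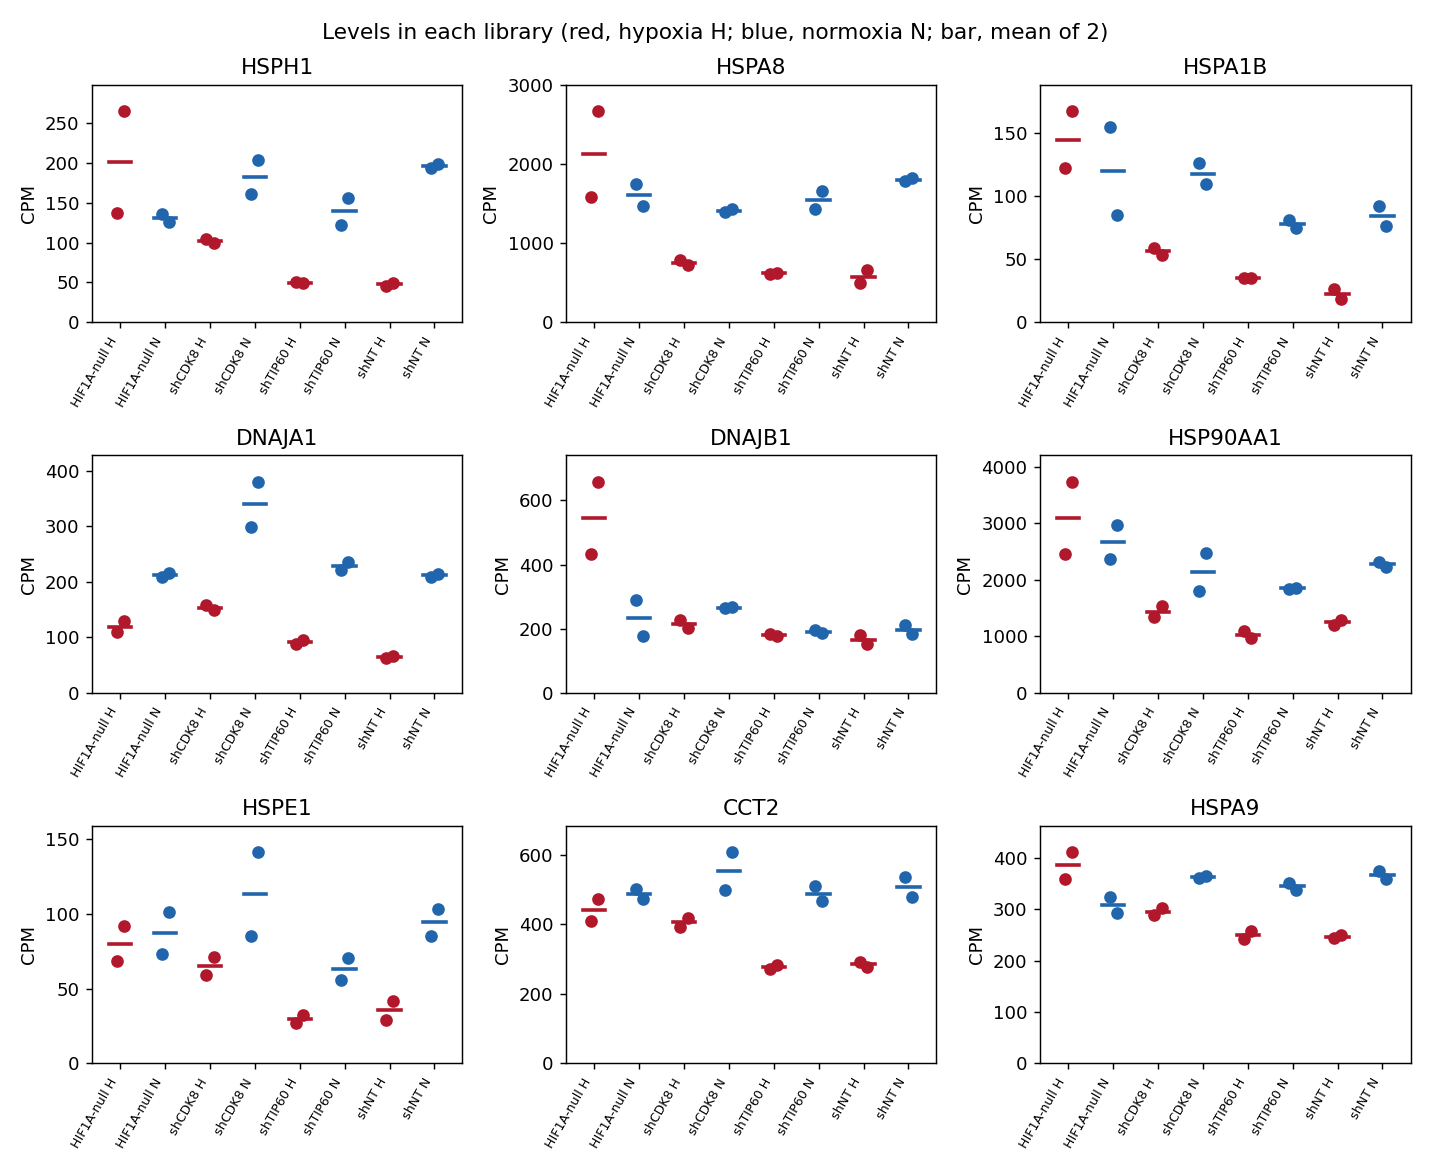
Levels of 9 members (CPM, linear axes from 0) in each of the 16 libraries, with hypoxia in red, normoxia in blue and a bar at the mean of the 2 libraries. HSPA8 stands at 496 and 662 CPM in hypoxic shNT libraries, against 1791 and 1819 CPM in normoxic ones, while its hypoxic HIF1A-null libraries at 1587 and 2667 CPM overlap the normoxic 1749 and 1474 CPM.

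The J proteins, which bring clients to HSP70 and trigger its ATPase, did not move as one. DNAJA1 fell in every line. It had 109 and 129 CPM in hypoxic HIF1A-null libraries, against 208 and 216 CPM in normoxic ones, a log2 fold change of -0.83 ± 0.13, adjusted p = 0.000196. It had 158 and 149 CPM in hypoxic shCDK8 libraries, against 299 and 379.8 CPM in normoxic ones, and 87.9 and 94.9 CPM in hypoxic shTIP60 libraries, against 221 and 235 CPM in normoxic ones. The shNT libraries had 62.2 and 66.0 CPM in hypoxia, against 209 and 215 CPM in normoxia, a log2 fold change of -1.73 ± 0.14, adjusted p = 1.85e-07. No hypoxic library overlapped the normoxic ones of its line. DNAJA2, its close relative, had 79.1 and 92.1 CPM in hypoxic HIF1A-null libraries, against 105 and 110.03 CPM in normoxic ones. It had 92.4 and 92.0 CPM in hypoxic shCDK8 libraries, against 123 and 119.6 CPM in normoxic ones, and 87.9 and 86.5 CPM in hypoxic shTIP60 libraries, against 113 and 118 CPM in normoxic ones. Hypoxic shNT libraries had 73.5 and 81.9 CPM, against 117 and 113 CPM in normoxic ones. Its falls were smaller, from -0.33 in HIF1A-null to -0.56 in shNT cells on the log2 scale, and the one in HIF1A-null cells did not pass the test without hypoxic library A or normoxic library B. The calls in shCDK8 and shTIP60 cells were also lost when single libraries were left out, with values of -0.41 to -0.38 and -0.44 to -0.37.

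DNAJB1, the J protein most closely tied to inducible HSP70, rose in hypoxic HIF1A-null cells and passed the test in no other line. It had 435 and 658 CPM in hypoxic HIF1A-null libraries, against 289 and 177 CPM in normoxic ones, a log2 fold change of 1.23 ± 0.21, adjusted p = 0.000309. It had 227 and 204 CPM in hypoxic shCDK8 libraries, against 263 and 267 CPM in normoxic ones, and 185 and 177 CPM in hypoxic shTIP60 libraries, against 195 and 186 CPM in normoxic ones. Levels in shNT cells were 179 and 151 CPM in hypoxia, against 211 and 183 CPM in normoxia. The 2 HIF1A-null hypoxic libraries were the highest of all 16. The rise passed the test without any 1 of the 4 HIF1A-null libraries, with log2 fold changes of 0.90 to 1.60. DNAJB4, a scarcer J protein named here after its values were seen, had 28.6 and 47.7 CPM in hypoxic HIF1A-null libraries, against 14.6 and 19.2 CPM in normoxic ones (1.18 ± 0.29, adjusted p = 0.00479), and lost that call without hypoxic library B or normoxic library A. The aggregation suppressor DNAJB6, the exchange factor BAG3, which links HSP70 to autophagy, and the HSP70 partner ST13 were between -0.17 and 0.27 in every line, and passed the test in none.

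HSP90 itself and its cochaperones split in shNT cells, where 5 of 8 fell, beside 3 in shCDK8 and 4 in shTIP60 cells. In HIF1A-null cells HSP90AB1 and PTGES3 rose. AHSA1, which speeds the ATPase of HSP90, had 269 and 253 CPM in hypoxic HIF1A-null libraries, against 303 and 229 CPM in normoxic ones. It had 232 and 225 CPM in hypoxic shCDK8 libraries, against 313 and 313 CPM in normoxic ones, and 117 and 120.1 CPM in hypoxic shTIP60 libraries, against 192 and 195 CPM in normoxic ones. In shNT libraries it had 121 and 100.1 CPM in hypoxia, against 242 and 205 CPM in normoxia. The shRNA groups did not overlap, and the log2 fold change was -1.02 ± 0.15, adjusted p = 5.77e-05, in shNT cells and -0.03 ± 0.15 in HIF1A-null cells.

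CHORDC1, an HSP90 cochaperone whose upstream stretch holds a run of alternating units (printed above), had 26.3 and 42.3 CPM in hypoxic HIF1A-null libraries, against 28.7 and 29.8 CPM in normoxic ones. It had 22.8 and 22.6 CPM in hypoxic shCDK8 libraries, against 33.0 and 52.8 CPM in normoxic ones, and 12.0 and 12.2 CPM in hypoxic shTIP60 libraries, against 24.6 and 32.3 CPM in normoxic ones. The shNT libraries had 11.6 and 13.1 CPM in hypoxia, against 31.8 and 33.2 CPM in normoxia. It fell in the 3 shRNA lines, by 1.40 on the log2 scale in shNT cells (adjusted p = 0.000158), and its HIF1A-null groups overlapped. STIP1, the adaptor that joins HSP70 to HSP90, had 596 and 585 CPM in hypoxic HIF1A-null libraries, against 607 and 451 CPM in normoxic ones. It had 499 and 474 CPM in hypoxic shCDK8 libraries, against 583 and 523 CPM in normoxic ones, and 264 and 242 CPM in hypoxic shTIP60 libraries, against 392 and 372 CPM in normoxic ones. Hypoxic shNT libraries had 269 and 236 CPM, against 485 and 417 CPM in normoxic ones. STIP1 fell in shTIP60 (-0.59 ± 0.15) and shNT cells (-0.84 ± 0.15), while the value in shCDK8 cells (-0.19 ± 0.15, adjusted p = 0.394) did not pass the test.

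The 2 cytosolic HSP90 genes differed, and are given here after their values were seen. HSP90AA1, the inducible form, fell in the shRNA lines, by 0.57 in shCDK8, 0.85 in shTIP60 and 0.86 in shNT cells on the log2 scale. HSP90AB1, the constitutive form, had 4191 and 4525 CPM in hypoxic HIF1A-null libraries, against 3092 and 2705 CPM in normoxic ones (0.59 ± 0.13, adjusted p = 0.00192). In shNT libraries HSP90AB1 had 2691 and 3019 CPM in hypoxia, against 3034 and 2723 CPM in normoxia, so the groups overlapped, and the log2 fold changes in the shRNA lines were -0.03 to 0.02. PTGES3 (p23), which holds HSP90 closed, rose in HIF1A-null cells (0.47 ± 0.13, adjusted p = 0.0105) but not without hypoxic library B or normoxic library A. FKBP4, an immunophilin of steroid receptor complexes, fell in shNT cells (-0.59 ± 0.16, adjusted p = 0.00902), and CDC37, which brings kinases to HSP90, passed the test in no line.

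Among the mitochondrial chaperones, HSPE1, the lid of the HSP60 barrel, fell most. HSPE1 had 68.2 and 92.0 CPM in hypoxic HIF1A-null libraries, against 73.0 and 102 CPM in normoxic ones. It had 58.8 and 71.1 CPM in hypoxic shCDK8 libraries, against 85.4 and 141 CPM in normoxic ones, and 26.8 and 32.2 CPM in hypoxic shTIP60 libraries, against 55.8 and 70.7 CPM in normoxic ones. Levels in shNT cells were 29.0 and 41.9 CPM in hypoxia, against 84.9 and 104 CPM in normoxia. Its log2 fold change was -1.41 ± 0.25, adjusted p = 0.000344, in shNT cells, without overlap, and -0.12 ± 0.24 in HIF1A-null cells, with overlap. HSPD1, the barrel itself, had 738 and 872 CPM in hypoxic HIF1A-null libraries, against 652 and 632 CPM in normoxic ones. It had 429 and 481 CPM in hypoxic shCDK8 libraries, against 576 and 673 CPM in normoxic ones, and 374 and 405 CPM in hypoxic shTIP60 libraries, against 518 and 524 CPM in normoxic ones. In shNT libraries it had 389 and 508 CPM in hypoxia, against 619.5 and 619 CPM in normoxia. HSPD1 fell by a similar size in the 3 shRNA lines, 0.42 to 0.46 on the log2 scale. Each of these calls was lost when single libraries were left out. The values then ran from -0.57 to -0.34 in shCDK8, -0.48 to -0.36 in shTIP60 and -0.67 to -0.28 in shNT cells.

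HSPD1 and HSPE1 are transcribed away from each other on chromosome 2, and annotated exons of the pair share 135 bases on opposite strands. The strand setting of the counting is not given in the sources used here, so reads from such overlaps cannot be assigned with certainty, and the same holds for 28.5% of the exon bases of TRAP1, which DNASE1 exons share. It also holds for 9.3% of those of TCP1 (ACAT2), 6.41% of DNAJB1 (TECR), 3.87% of HSP90AA1 (WDR20) and smaller shares of some other members. HSPE1-MOB4 shares 10.5% of the exon bases of HSPE1 on the same strand, which no strand setting resolves. HSPA9 (mortalin), the main HSP70 of the mitochondrial matrix, had 359.8 and 411 CPM in hypoxic HIF1A-null libraries, against 324 and 292 CPM in normoxic ones. It had 288 and 302 CPM in hypoxic shCDK8 libraries, against 360.04 and 364 CPM in normoxic ones, and 242 and 257 CPM in hypoxic shTIP60 libraries, against 351 and 337 CPM in normoxic ones. The shNT libraries had 244 and 249 CPM in hypoxia, against 375 and 359 CPM in normoxia. HSPA9 fell in shTIP60 (-0.46 ± 0.12) and shNT cells (-0.57 ± 0.12) and rose in HIF1A-null cells (0.32 ± 0.12, adjusted p = 0.0421), the last not without hypoxic library B or either normoxic library. TRAP1, the mitochondrial HSP90, rose in HIF1A-null cells (0.47 ± 0.13, adjusted p = 0.0112) and was between -0.13 and -0.06 in the shRNA lines, where it did not pass the test. The TRAP1 call was lost without hypoxic library A or normoxic library B.

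The TRiC/CCT chaperonin folds actin, tubulin and other cytosolic clients, and 7 of its subunits are among the members. In hypoxia 6 of 7 fell in shTIP60 and in shNT cells and 2 of 7 in shCDK8 cells, with medians of -0.49, -0.51 and -0.36 on the log2 scale, while the HIF1A-null median was 0.14. CCT2 had 411 and 474 CPM in hypoxic HIF1A-null libraries, against 500.3 and 474 CPM in normoxic ones. It had 392 and 419 CPM in hypoxic shCDK8 libraries, against 499.8 and 607 CPM in normoxic ones, and 271 and 283 CPM in hypoxic shTIP60 libraries, against 509 and 468 CPM in normoxic ones. Hypoxic shNT libraries had 291 and 278 CPM, against 535 and 479.6 CPM in normoxic ones. The 2 oxygen levels did not overlap in the shRNA lines and came within 1 CPM of each other in HIF1A-null cells, and the log2 fold change was -0.83 ± 0.13, adjusted p = 0.000146, in shNT cells and -0.14 ± 0.13, adjusted p = 0.434, in HIF1A-null cells. CCT7 had 952 and 1033 CPM in hypoxic HIF1A-null libraries, against 939.96 and 864 CPM in normoxic ones. It had 799 and 853 CPM in hypoxic shCDK8 libraries, against 960.3 and 1005 CPM in normoxic ones, and 569.6 and 556 CPM in hypoxic shTIP60 libraries, against 799 and 787 CPM in normoxic ones. Levels in shNT cells were 606 and 563 CPM in hypoxia, against 878 and 792 CPM in normoxia. CCT7 fell in shTIP60 and shNT cells, by 0.49 and 0.51 on the log2 scale.

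CCT5 differed between the lines already in normoxia. It had 493 and 486 CPM in hypoxic HIF1A-null libraries, against 594 and 451 CPM in normoxic ones. It had 488 and 491 CPM in hypoxic shCDK8 libraries, against 661 and 742 CPM in normoxic ones, and 283 and 292 CPM in hypoxic shTIP60 libraries, against 494 and 458 CPM in normoxic ones. In shNT libraries it had 474 and 437 CPM in hypoxia, against 875 and 727 CPM in normoxia. In normoxia it was lower in HIF1A-null (-0.62 ± 0.15, adjusted p = 0.0097) and in shTIP60 cells (-0.75 ± 0.15, adjusted p = 0.00183) than in shNT cells. The other subunits TCP1, CCT3 and CCT4 fell in shTIP60 and shNT cells by 0.37 to 0.57, and CCT8, the member of the complex with no call, was -0.30 in shCDK8, -0.30 in shTIP60 and -0.28 in shNT cells.

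The heat shock factors passed no test of hypoxia. HSF1, the main activator of the heat shock response, had 279 and 223 CPM in hypoxic HIF1A-null libraries, against 229 and 188 CPM in normoxic ones. It had 284 and 267 CPM in hypoxic shCDK8 libraries, against 254 and 166 CPM in normoxic ones, and 229 and 229 CPM in hypoxic shTIP60 libraries, against 173 and 187 CPM in normoxic ones. The shNT libraries had 239 and 201 CPM in hypoxia, against 195 and 194 CPM in normoxia. Its log2 fold changes were 0.18 to 0.39, all above 0 and none past the test (adjusted p = 0.121 in shCDK8, the smallest). HSF2, another factor that binds such elements, had 21.1 and 30.7 CPM in hypoxic HIF1A-null libraries, against 19.3 and 24.2 CPM in normoxic ones. It had 20.0 and 24.4 CPM in hypoxic shCDK8 libraries, against 28.2 and 29.9 CPM in normoxic ones, and 15.2 and 16.2 CPM in hypoxic shTIP60 libraries, against 20.7 and 19.9 CPM in normoxic ones. Hypoxic shNT libraries had 17.1 and 23.1 CPM, against 24.5 and 25.7 CPM in normoxic ones. Hypoxic HSF2 was below normoxic HSF2 in the 3 shRNA lines, with a log2 fold change of -0.37 in shTIP60 cells (adjusted p = 0.133, the smallest of the 4 lines), and no line passed the test. Activity of HSF1 is largely set on the protein, which these counts do not measure.

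The small heat shock proteins, which hold unfolded proteins without ATP, and SERPINH1 differed between lines and passed no test of hypoxia, and are given here after their values were seen. HSPB8 had 10.6 and 8.34 CPM in hypoxic HIF1A-null libraries and 9.03 and 8.67 CPM in hypoxic shTIP60 libraries, against 3.28 and 3.54 CPM in hypoxic shNT libraries. In normoxia it had 10.0 and 12.1 CPM in HIF1A-null and 10.0 and 9.64 CPM in shTIP60 libraries, against 2.93 and 3.08 CPM in shNT libraries. It was higher than in shNT cells at both oxygen levels in both lines, with normoxic log2 fold changes of 1.88 ± 0.20, adjusted p = 7.2e-06, in HIF1A-null and 1.71 ± 0.20, adjusted p = 1.56e-05, in shTIP60 cells. HSPB1 was higher in HIF1A-null cells (0.68 ± 0.16, adjusted p = 0.0085, in normoxia and 1.06 ± 0.16, adjusted p = 7.5e-05, in hypoxia) and in hypoxic shCDK8 cells (0.62 ± 0.16, adjusted p = 0.00836), the last not without hypoxic shNT library B. SERPINH1 had 287 and 278 CPM in hypoxic shTIP60 libraries, against 171 and 133 CPM in hypoxic shNT libraries, and 271 and 269 CPM in normoxic shTIP60 libraries, against 155 and 146 CPM in normoxic shNT libraries. It was higher in shTIP60 than in shNT cells in normoxia (0.85 ± 0.17, adjusted p = 0.00278) and in hypoxia (0.89 ± 0.17, adjusted p = 0.00163). SERPINH1 was also higher in hypoxic HIF1A-null cells (0.62 ± 0.17, adjusted p = 0.00921), but not without hypoxic HIF1A-null library A or hypoxic shNT library B.

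Whether the lines differ in their response to hypoxia was tested as a difference of log2 fold changes. The response of HIF1A-null cells was higher than that of shNT cells for 22 of the 38 members (57.9%), against 7.53% of all genes tested. It was lower for 0 members in edgeR, with 0 at an unadjusted p under 0.05, against 8.92% of all genes. DESeq2 called 24 members in either direction, against 19.7% of all genes. The 22 differences ran from 0.60 to 2.66 on the log2 scale, and the median over all 38 members was 0.71, beside -0.02 over all genes. Every role list with more than 2 members was represented: 5 of 7 HSP70 and HSP110 genes, 2 of 7 J proteins and partners, 7 of 8 HSP90 genes and cochaperones, 3 of 4 mitochondrial chaperones and 5 of 7 TRiC/CCT subunits.

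The largest difference was that of HSPH1 (2.66 ± 0.31, adjusted p = 6.78e-05). HSPA1B (2.17 ± 0.33, adjusted p = 0.000592), HSPA8 (2.04 ± 0.28, adjusted p = 0.000265) and HSPA1A (2.01 ± 0.41, adjusted p = 0.0041) followed, and then CHORDC1 (1.63 ± 0.31, adjusted p = 0.00282) and DNAJB1 (1.48 ± 0.29, adjusted p = 0.00342). For HSPA8 and the HSPA1 pair the difference came with a fall in shNT cells and no call in HIF1A-null cells, and for DNAJB1 with a rise in HIF1A-null cells and no call in shNT cells. DNAJA1 fell in both lines, by less in HIF1A-null cells, and the difference passed the test (0.89 ± 0.19, adjusted p = 0.00542). DNAJA2 fell in both lines, and its difference of 0.23 ± 0.16 did not pass the test (adjusted p = 0.352). Of the 22 calls, 11 held when any 1 of the 8 libraries was left out: HSPA1A, HSPA1B, HSPA8, HSPA4, HSPH1, DNAJA1, DNAJB1, AHSA1, STIP1, CHORDC1 and HSPA9. Without hypoxic HIF1A-null library B the median difference over the members was 0.59, and without normoxic shNT library A it was 0.61, beside 0.71 with all libraries. In these fits fewer genes were called over all genes as well.

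The response of shCDK8 cells differed from that of shNT cells for 0 members in edgeR, against 0.0387% of all genes, with 8 at an unadjusted p under 0.05. How many of all genes passed at an unadjusted p was not counted. DESeq2 called 1 member, against 1.45% of all genes. The median difference was 0.24 and 29 of 38 differences were above 0. For HSPH1 the difference was 1.20 ± 0.31, adjusted p = 0.162, for DNAJA1 0.58 ± 0.19, adjusted p = 0.264 and for HSPA1B 0.84 ± 0.33, adjusted p = 0.361. The response of shTIP60 cells differed for 0 members, against 0.0322% of all genes, with 2 at an unadjusted p under 0.05. DESeq2 called 0 members, against 0.412% of all genes. The median difference was 0.10. These 3 comparisons share the shNT libraries. An F test over the 3 differences called 18 of 38 members, against 14.2% of all genes.

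**Figure D4:**
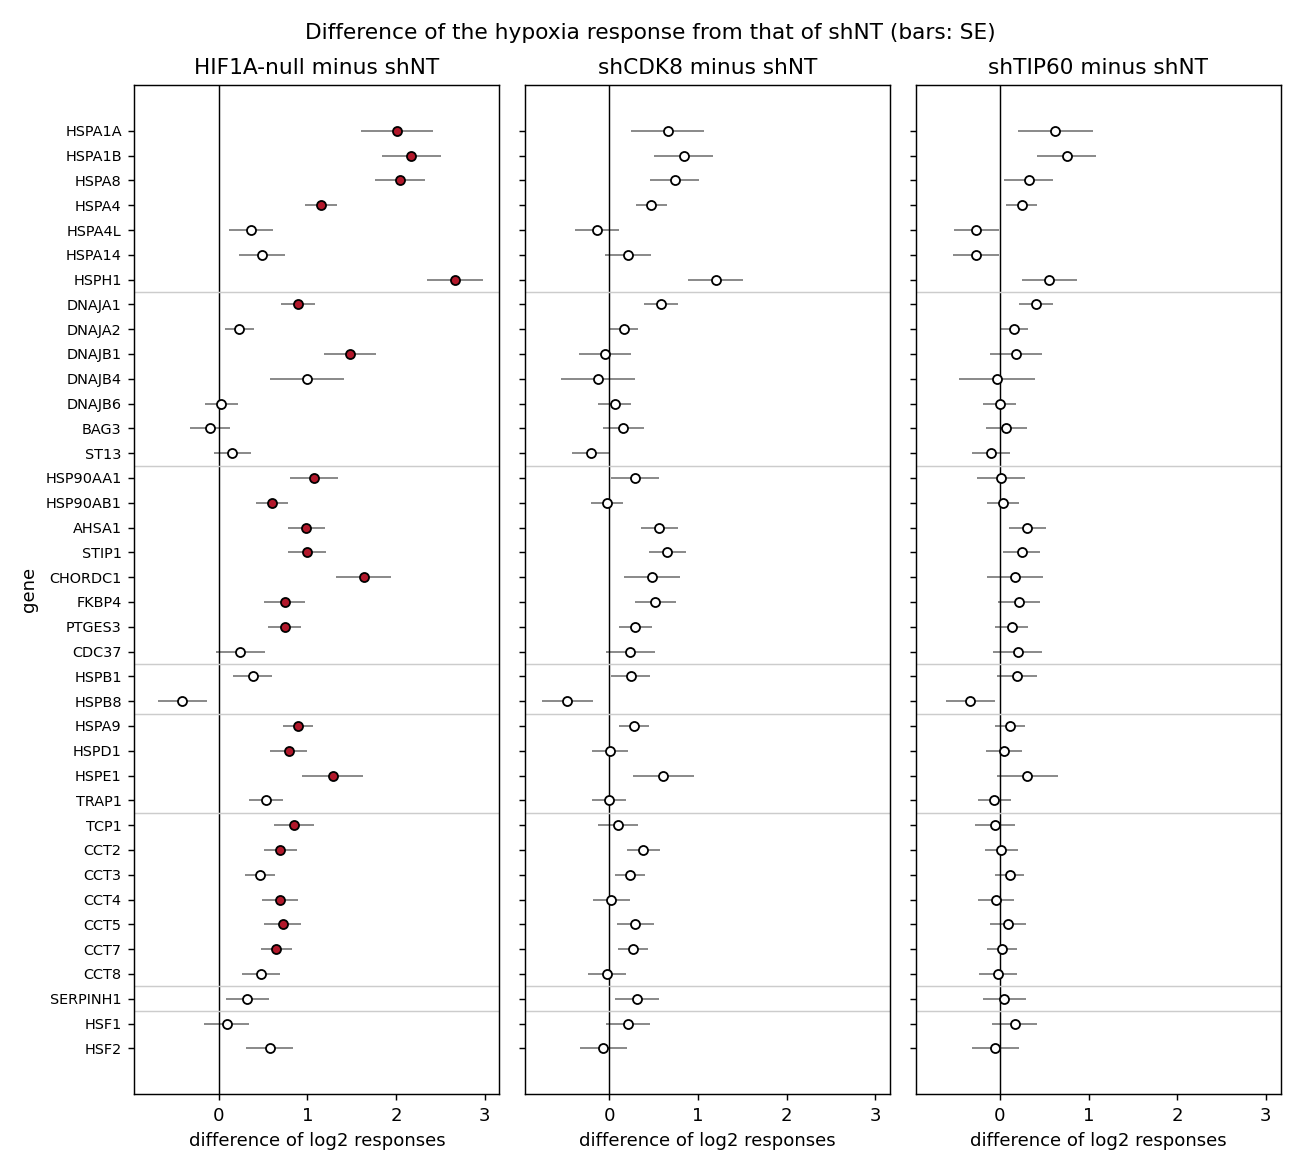
Difference of the log2 hypoxia response from that of shNT cells (horizontal axis, bars are standard errors) for each of the 38 members (vertical axis), with 1 panel each for HIF1A-null, shCDK8 and shTIP60 cells and filled points for calls. The HIF1A-null values lie above 0 for 36 of 38 members and reach 2.66 at HSPH1, and the other panels hold no filled point.

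The lines were also compared at each oxygen level. In normoxia 2 members were higher in HIF1A-null than in shNT cells, HSPB1 and HSPB8, and CCT5 was lower (5.86% of all genes in each direction). In hypoxia 29 of 38 were higher in HIF1A-null cells (76.3%), against 20.3% of all genes. None was lower in edgeR, with 0 at an unadjusted p under 0.05, where 20.8% of all genes were lower at the adjusted threshold. DESeq2 called 29 in either direction, against 42.6% of all genes. Among the 29, HSPA4 (1.40 ± 0.13, adjusted p = 6.16e-07), HSPA1B (2.68 ± 0.25, adjusted p = 7.12e-07) and HSPA8 (1.88 ± 0.20, adjusted p = 3.49e-06) had the 3 smallest adjusted p-values. The members that did not pass were HSPA4L, DNAJA2, DNAJB6, BAG3, ST13, CDC37, CCT5, HSF1 and HSF2.

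In normoxia shCDK8 cells had 4 members higher than shNT cells, HSPA4L, DNAJA1, DNAJB6 and AHSA1 (5.8% of all genes), and CCT4 lower (7.27%). In hypoxia 16 members were higher in shCDK8 cells (14.4% of all genes), and CCT4 was again lower (13.4%). CCT4 had 233 and 265 CPM in hypoxic shCDK8 libraries, against 386 and 428 CPM in hypoxic shNT libraries, a log2 fold change of -0.71 ± 0.14, adjusted p = 0.00201. DNAJA1, the higher call with the smallest adjusted p, differed by 1.26 ± 0.14, adjusted p = 7.7e-06. In shTIP60 cells HSPB8 and SERPINH1 were higher in normoxia (10.3% of all genes) and CCT5 lower (8.13%). In hypoxia DNAJA1, HSPB8 and SERPINH1 were higher in shTIP60 cells (11.3%), and HSPA14 and CCT5 lower (10.5%). HSPA14 differed by -0.76 ± 0.19, adjusted p = 0.00862.

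The members span a wide range of expression. Per kilobase of transcript in normoxic shNT cells, HSP90AB1 stood at 1127 CPM per kb, HSPA8 at 797, HSP90AA1 at 704, HSPB1 at 601 and CCT3 at 572. The least was HSPB8 at 1.61 CPM per kb, with HSPA4L at 2.17, DNAJB4 at 4.12 and HSPA1A at 4.77. The HSPA1A level is uncertain, as is the split of reads with its near-identical copy HSPA1B, which stood at 33.5 CPM per kb. Of the 5 most abundant, HSPA8, HSP90AA1 and CCT3 fell in hypoxic shNT cells and HSP90AB1 and HSPB1 did not pass the test.

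A further 62 chaperone genes that are not members were set beside them, of which 56 passed the filter. In hypoxia 10 were higher and 13 lower in HIF1A-null, 4 and 17 in shCDK8, 5 and 27 in shTIP60, and 5 and 31 in shNT cells. In HIF1A-null cells that was 17.9% higher and 23.2% lower, against 18.9% and 19.1% of all genes, and in shNT cells 8.93% and 55.4%, against 20.7% and 20%. The shares were 7.14% and 30.4% in shCDK8 cells, against 13.8% and 11%, and 8.93% and 48.2% in shTIP60 cells, against 19.4% and 19.8%. The median log2 fold change was -0.14 in HIF1A-null, -0.32 in shCDK8, -0.42 in shTIP60 and -0.46 in shNT cells. The HIF1A-null response was higher than that of shNT cells for 14 of the 56 (25%, against 7.53% of all genes) and lower for 2 (3.57%, against 8.92%). CCT6A, the chaperonin subunit that is not a member, fell in shNT cells (-0.84 ± 0.13, adjusted p = 0.000136) and was 0.10 ± 0.13 in HIF1A-null cells, a difference of 0.94 ± 0.19, adjusted p = 0.00376. FKBP5, an HSP90 immunophilin of steroid receptors, fell in all 4 lines, by 1.12 on the log2 scale in shNT cells and by 0.43 in HIF1A-null cells.

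Among other HSP70 partners, the exchange factors BAG2 and BAG1 fell in all 4 lines, with BAG2 at -0.66 ± 0.13 in HIF1A-null and -1.15 ± 0.13 in shNT cells and BAG1 at -0.77 ± 0.14 and -1.10 ± 0.14. HSPA2, an HSP70 best known from the testis, fell in HIF1A-null (-1.69 ± 0.24), shTIP60 (-1.66 ± 0.24) and shNT cells (-1.17 ± 0.24). The HSP90-associated NUDC and RUVBL1 fell in shNT cells, by 1.31 and 0.99 on the log2 scale. Among other J proteins, DNAJB2 rose in all 4 lines (0.51 ± 0.14 in HIF1A-null and 1.09 ± 0.14 in shNT cells), DNAJC9, which also chaperones histones, fell in all 4 (-0.60 ± 0.23 and -1.64 ± 0.24), and DNAJC8 fell in the 3 shRNA lines (-0.71 ± 0.13 in shNT cells). HSF4, a heat shock factor best known from the lens, rose in every line, by 0.62 ± 0.16 in HIF1A-null and 1.69 ± 0.15 in shNT cells, a difference of -1.07 ± 0.22, adjusted p = 0.00401.

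The polyubiquitin gene UBB fell in all 4 lines (-0.73 ± 0.13 in HIF1A-null and -0.88 ± 0.14 in shNT cells). In mitochondrial quality control CLPX rose in HIF1A-null cells (0.60 ± 0.16), the iron-sulphur J protein HSCB fell there (-0.71 ± 0.19), and the protease LONP1 rose in shCDK8 (0.65 ± 0.21) and shTIP60 cells (0.62 ± 0.21). HSPB11 fell in HIF1A-null (-0.59 ± 0.16) and shNT cells (-0.46 ± 0.16), and the chaperonin partners PDCL3 and TXNDC9 fell in HIF1A-null and shNT cells, PDCL3 by 0.37 and 0.72 and TXNDC9 by 1.00 and 1.10 on the log2 scale.

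How far calls rest on single libraries differed between lines. Calls held whichever of the 4 libraries of the line was left out for 3 of 9 members in HIF1A-null (DNAJA1, DNAJB1 and HSP90AB1), 4 of 16 in shCDK8 (HSPA1B, HSPA8, HSPA4 and DNAJA1), 14 of 22 in shTIP60 and 17 of 23 in shNT cells. In each of these fits fewer genes were called over all genes tested as well, so a lost call need not be particular to a member. In shCDK8 cells the median log2 fold change over the members was -0.33 with all libraries. It was -0.43 without hypoxic library B, -0.29 without normoxic library B and -0.27 without hypoxic library A. In HIF1A-null cells the median of 0.21 became 0.06 without hypoxic library B and 0.09 without normoxic library B. In shTIP60 cells the calls of HSPA1A, DNAJA2, STIP1, HSPA9, HSPD1, TCP1, CCT3 and CCT4 were lost without at least 1 library, and in shNT cells those of HSPA4L, FKBP4, HSPD1, TCP1, CCT3 and CCT4. Those of HSPD1, CCT3 and CCT4 in shTIP60 cells and of CCT4 in shNT cells were lost whichever library of the line was left out. Between lines in normoxia, HSPB1 in HIF1A-null cells did not pass without normoxic HIF1A-null library A or normoxic shNT library B, nor CCT5 without normoxic HIF1A-null library B or normoxic shNT library A. HSPA4L, DNAJB6 and AHSA1 in normoxic shCDK8 cells, and HSPA14 and DNAJA1 in hypoxic shTIP60 cells, likewise lost their calls when single libraries were left out, 2 to 4 libraries for each gene. In the normoxic shCDK8 comparison the member median of 0.25 became 0.16 without normoxic shCDK8 library B. It was 0.31 without normoxic shNT library A and 0.18 without normoxic shNT library B. In the hypoxic shTIP60 comparison the median of 0.01 became 0.00 without hypoxic shNT library A and -0.01 without hypoxic shNT library B. Without hypoxic shTIP60 library B it was 0.04. In the normoxic HIF1A-null comparison the median of 0.10 became 0.12 without normoxic HIF1A-null library B.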

How the data were processed

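Poly(A) RNA from 16 HCT116 libraries, 2 in each of 8 groups, was sequenced on the Ion Torrent platform. The authors deposited raw gene-level read counts, not normalized, for the whole series. The submitters' processing notes name the aligner GSNAP, the counter HTSeq (version 0.5.4p5), R (version 3.0.3) and DESeq (version 1.14.0), and give human build hg19/GRCh37; the annotation and the strand setting are not given in the sources used here. Columns were assigned to groups by their names; their library numbers are not the labels' replicate numbers.

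From the deposited counts, low-count genes were removed with filterByExpr (minimum count 10, minimum total 15), which kept 15520 of 23669. The counts kept were scaled by TMM and fitted with edgeR 4.0.16 in R 4.3.3, using 1 coefficient per group over all 16 libraries. Quasi-likelihood tests were made for 13 comparisons, with Benjamini-Hochberg adjustment over all genes tested and a threshold of 0.05. Fold changes are log2 values with standard errors, and levels are counts per 1000000 (CPM) on TMM-scaled libraries. The procedure was also run on simulated counts with known changes in hypoxic shNT libraries and a common spread for all genes. That simulation does not bear on how results depend on scaling or on gene-to-gene spread. Totals of 26620086 to 39401494 counts make 3 counts 0.0716 to 0.112 CPM, which covers counting error only. Library pairs of a group differed by more than counting noise, so none was merged.

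The members and all gene lists were chosen with earlier results of these data known. Values in every library are given for HSPA1A, HSPA1B, HSF1, HSF2, the up to 3 members of each role list with the smallest adjusted p among those called in hypoxic shNT cells or in a response difference, and members called in opposite directions. From each of the 7 other chaperone lists, up to 3 genes with the smallest adjusted p in a hypoxia comparison are named. One gene that this rule would name is not reported here. Gene positions and transcript lengths come from GENCODE v44lift37 (GRCh37). Promoter windows come from RefSeq (GRCh38.p14) and were matched to GRCh37 by sequence. The alternatives tried were library totals, DESeq2 1.42.0, other filters on low counts, the groups compared alone, a replicate block and leaving out each library.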

Additional observations from a re-analysis of the deposited data

Results flagged for a closer look

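The hypoxia response of 22 members differed between HIF1A-null and shNT cells by the test of the difference itself (edgeR's quasi-likelihood test, adjusted p under 0.05 over all genes tested), each higher in HIF1A-null cells. The values are log2 differences, HIF1A-null minus shNT. Among HSP70 and HSP110 genes the difference was 2.01 for HSPA1A, 2.17 for HSPA1B, 2.04 for HSPA8, 1.15 for HSPA4 and 2.66 for HSPH1. The J proteins DNAJA1 and DNAJB1 differed by 0.89 and 1.48. Of HSP90 and its cochaperones, HSP90AA1 differed by 1.07, HSP90AB1 by 0.60, AHSA1 by 0.99, STIP1 by 1.00, CHORDC1 by 1.63, FKBP4 by 0.75 and PTGES3 by 0.74. In mitochondria HSPA9 differed by 0.90, HSPD1 by 0.79 and HSPE1 by 1.29. The chaperonin subunits TCP1, CCT2, CCT4, CCT5 and CCT7 differed by 0.85, 0.70, 0.70, 0.72 and 0.65. HSPA1A and HSPA1B share near-identical sequence and count as 1 signal, and the 22 rest on the same 8 libraries.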

How the results depend on the processing

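Direction was kept for every member in each alternative and comparison in which it was called. Counts of called members that moved by over 1.5 times were these. For HIF1A-null hypoxia, 2 lower became 8 with library totals, 1 with no filter except 1 count and 1 with only the groups compared, and 7 higher became 3, 12 with a replicate block and 3 with only those groups. The 0 higher in shCDK8 became 2 with the block, and in shTIP60 1 with the block and 1 with only those groups. The HIF1A-null difference of 22 became 12 with only the groups compared, and the shCDK8 difference of 0 became 3 with no filter, 4 with the block and 1 with DESeq2. Against shNT in normoxia, HIF1A-null (3) became 6 with no filter and 5 with the block, shCDK8 (5) became 8 with the block, and shTIP60 (3) became 7 with no filter, 8 with the block and 10 with only those groups. In hypoxia shTIP60 (5) became 9, 12 and 8 under those 3. Shares over all genes moved too. The normoxic HIF1A-null comparison called 11.7% of all genes, 10.7% with no filter and 19.1% with the block. The normoxic shCDK8 comparison called 13.1%, and 21% with the block. In shCDK8 cells 13.8% of all genes were higher in hypoxia, and 19.1% with the block. In shTIP60 cells 19.4% were higher, 23.6% with the block and 30.4% with only those groups. The normoxic shTIP60 comparison called 18.4% of all genes, and 15.9%, 27.6% and 32.7% under the 3 alternatives named for it, and the hypoxic one 21.8%, and 18.8%, 32.1% and 24.2%. The shCDK8 difference called 0.0387% of all genes, and 1.87%, 3.43% and 1.45% under its 3. The HIF1A-null difference called 16.4%, and 6.88% with only the groups compared. The HIF1A-null response called 18.9% of all genes higher, and 9.57% with library totals, 23.8% with the block and 11.4% with only those groups. It called 19.1% lower, and 33.1% with library totals, 15.6% with no filter and 12.2% with only those groups. Leaving out 1 library gave 1 to 2 lower and 3 to 9 higher members in HIF1A-null, 5 to 16 lower and 0 to 1 higher in shCDK8, 16 to 17 lower in shTIP60 and 17 to 21 lower in shNT cells. The HIF1A-null difference ranged from 11 to 23, and the shCDK8 and shTIP60 differences stayed at 0. Against shNT in normoxia the ranges were 2 to 5 (HIF1A-null), 2 to 4 (shCDK8) and 3 to 4 (shTIP60), and in hypoxia 27 to 28, 13 to 16 and 3 to 8. Fits with fewer libraries or groups have fewer residual degrees of freedom. Some of these fits called more genes and others fewer, and the cause of any of these moves was not tested. With 1 library left out, a smaller share of all genes was called in every comparison of hypoxia with normoxia within a line. The same held for every comparison against shNT cells at a given oxygen level. For the differences of response that share moved either way. A lower member count with 1 library left out thus need not be particular to the members. The block used the library numbers of the columns, which are not the labels' replicate numbers. When the lower-numbered library of each group was set with the lower-numbered ones of the other groups, the deviations from the group means correlated at 0.03 to 0.34 (median 0.12, 18 of 28 over 0.1), and the libraries were not treated as pairs. With 2 libraries a group, the fit leaves 8 residual degrees of freedom, to which the quasi-likelihood test adds information on spread from other genes.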
